A study of Mus musculus with 9 samples.

Results

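Genes of glycolysis and of the response to low oxygen were followed in cultured mouse microglia exposed to glioma-conditioned medium (GCM). The group holds 34 genes, chosen by name from the glycolytic pathway and from well-known targets of hypoxia-inducible factor (HIF). The choice was made with earlier results of these data known. Counts of these genes beside all genes are therefore descriptions and not a test. Of the 34 genes, 30 could be measured, out of 17097 genes with a probe set of a single symbol. Gpi1, Eno1, P4ha1 and Pgam1 had no such probe set in the annotation used here and were left out. The study exposed microglia to medium from human glioblastoma cells to ask how tumour-derived factors change their expression profile. The cells were primary microglia from cortices of C57BL/6J mice aged P0-P2, kept in serum-containing medium. The control group (n = 3) received no stimulation, the GCM LN18 group (n = 3) received medium conditioned by LN18 cells and the GCM U87 group (n = 3) received medium conditioned by U87 cells, each for 6 h. Each of the 9 samples was hybridized to 1 Affymetrix array.

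Several features of the samples bear on every value below. The factors came from human cell lines and acted on neonatal mouse cells outside the brain. The control was untreated, so conditioning by any cell was not separated from conditioning by glioma cells. In the deposited log2 signals, each probe set had the same mean over the 3 arrays of every replicate number. This held for 100% of probe sets within 1e-06, so that a low control in a replicate number was accompanied by higher treated arrays of that number. Differences between groups within a replicate number are not altered by such centring, and they are therefore given beside the group means. Leaving out a single array does not undo the centring, so the other arrays of that number keep its trace. A fit of group means alone counts 6 residual degrees of freedom where the values hold 4, and its p-values are too small. Adding the replicate number as a block leaves 4, and the adjusted p of that fit is given beside the calls it ends. The design text places the replicates in separate cortical cultures but does not say whether a number marks the same culture in all groups.

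Glycolysis splits glucose into pyruvate in the cytosol, and lactate dehydrogenase turns pyruvate into lactate, which monocarboxylate transporters carry out of the cell. HIF is a transcription factor whose alpha subunit is hydroxylated by EGLN enzymes when oxygen is present and is then destroyed through the VHL ubiquitin ligase. When the alpha subunit is stable, HIF raises glucose transporters, most glycolytic enzymes, mitophagy receptors and its own inhibitors. Microglia and macrophages are known to use the same genes when inflammatory signals stabilize HIF in normal oxygen.

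HIF binds DNA at a short core motif, ACGTG or GCGTG, which was searched on both strands in RefSeq promoter windows of GRCm38.p6, from 250 bases before to 50 bases after each start. CACGTG matches on both strands and was counted at each. Windows were found for 31 of the 34 named genes, and 29 of these genes (93.5%) held at least 1 match, against 46.7% of all 27025 genes. By window, the shares were 77.8% of 45 and 43.8% of 32851. Part of the group was chosen as HIF targets, so the choice itself favours a higher share. The promoters were not matched for base composition or expression, and the excess is no result of these arrays. Promoters are shown for Mxi1, the gene that passed the test with the block, and for Slc16a3, Hk2 and Bnip3, chosen after their values were seen as the other genes past the test and the gene with the largest difference. Matches are in capitals. Both Mxi1 windows that hold a match are shown, and another, at chr19:53310256-53310555, holds none. A match is a description of the letters in the window and no evidence of binding in these cells.

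Mxi1 chr19:53329163-53329462 (+ strand): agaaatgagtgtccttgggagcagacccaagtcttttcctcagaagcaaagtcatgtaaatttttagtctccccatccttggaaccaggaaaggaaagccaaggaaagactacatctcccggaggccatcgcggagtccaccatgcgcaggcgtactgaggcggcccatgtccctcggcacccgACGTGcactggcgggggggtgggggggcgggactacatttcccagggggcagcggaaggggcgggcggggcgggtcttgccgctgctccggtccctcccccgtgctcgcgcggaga
Mxi1 chr19:53329445-53329744 (+ strand): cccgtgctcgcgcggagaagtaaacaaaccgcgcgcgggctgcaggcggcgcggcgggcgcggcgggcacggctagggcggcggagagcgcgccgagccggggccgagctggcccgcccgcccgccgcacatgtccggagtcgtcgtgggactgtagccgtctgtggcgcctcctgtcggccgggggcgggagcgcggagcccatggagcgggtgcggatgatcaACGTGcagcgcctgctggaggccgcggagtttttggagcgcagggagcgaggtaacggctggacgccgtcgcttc
Slc16a3 chr11:120948817-120949116 (+ strand): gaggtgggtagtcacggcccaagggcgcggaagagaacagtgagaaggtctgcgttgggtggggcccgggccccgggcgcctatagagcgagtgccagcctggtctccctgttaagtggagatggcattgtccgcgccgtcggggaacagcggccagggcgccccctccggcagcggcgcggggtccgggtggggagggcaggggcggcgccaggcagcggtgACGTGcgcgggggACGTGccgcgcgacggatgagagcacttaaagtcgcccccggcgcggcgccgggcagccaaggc
Hk2 chr6:82774405-82774704 (- strand): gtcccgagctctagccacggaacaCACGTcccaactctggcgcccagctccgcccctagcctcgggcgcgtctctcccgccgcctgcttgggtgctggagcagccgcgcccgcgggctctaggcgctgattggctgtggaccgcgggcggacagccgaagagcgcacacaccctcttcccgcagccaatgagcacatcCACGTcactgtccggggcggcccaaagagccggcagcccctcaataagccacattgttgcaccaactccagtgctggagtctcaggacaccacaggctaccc
Bnip3 chr7:138909457-138909756 (- strand): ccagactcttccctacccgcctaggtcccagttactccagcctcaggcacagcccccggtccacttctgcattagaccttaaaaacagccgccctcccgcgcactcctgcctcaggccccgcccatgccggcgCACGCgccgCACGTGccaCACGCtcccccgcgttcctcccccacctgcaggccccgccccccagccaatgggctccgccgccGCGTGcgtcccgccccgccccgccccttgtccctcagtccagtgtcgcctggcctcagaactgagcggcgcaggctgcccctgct

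The largest contrasts among the 30 genes lay between arrays rather than between groups. The control array of replicate number 1 was the lowest of the 9 arrays in 19 of 30 genes (63.3%), against 17.3% of all genes, and the GCM LN18 array of the same number was the highest in 15 (50%), against 13.5% of all genes. The control array of replicate number 2 was the highest in 8 genes, and the GCM U87 array of number 2 was the lowest in 7. The median deviation of the 30 genes from their means over all arrays was -0.25 on the log2 scale in control 1 and 0.10 in control 2. It was 0.16, 0.06 and 0.10 in the GCM LN18 arrays, and 0.06, -0.17 and -0.03 in the GCM U87 arrays. On these centred values, the control medians spanned a wider range than those of either treated group. Each probe set had the same mean in every replicate number. A low control and a stronger response to both media in that number therefore cannot be told apart. The cause of the wider control range was not tested.

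**Figure D1:**
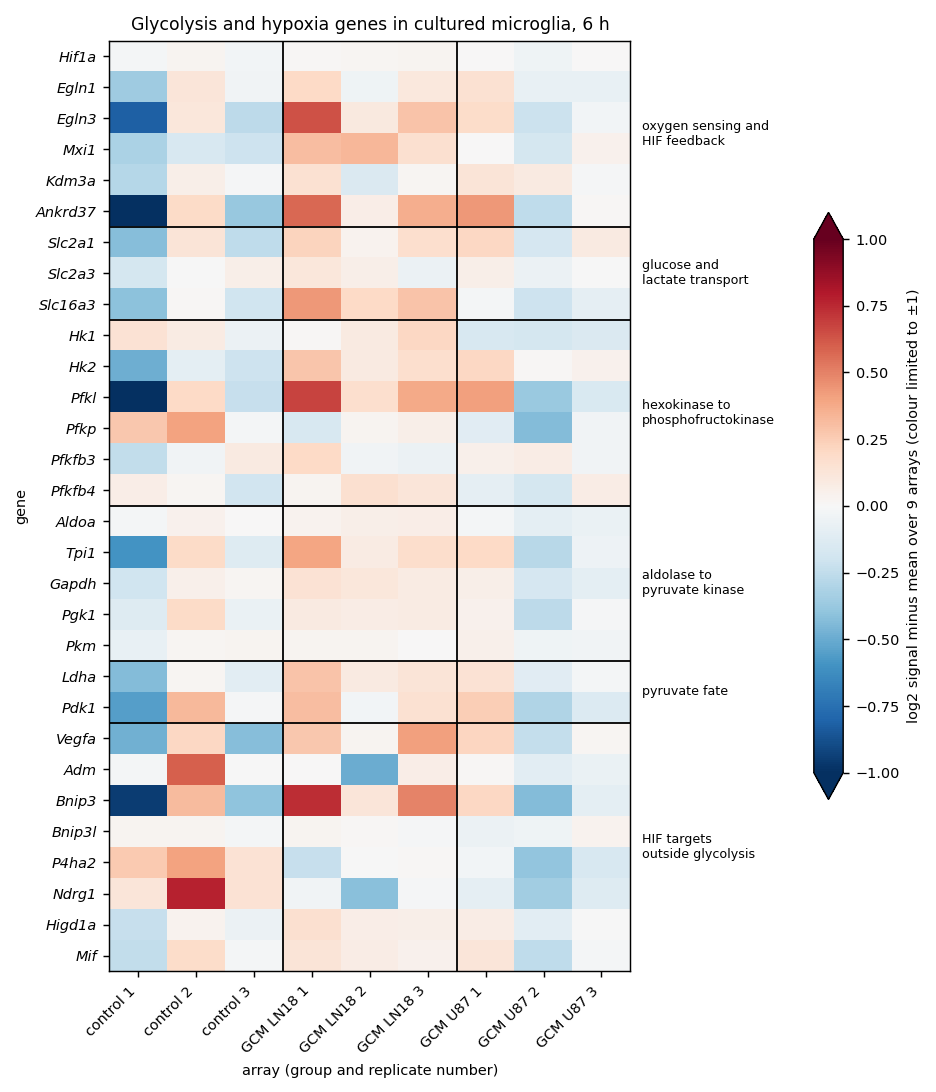
Log2 signal of each of the 30 measured genes (rows, ordered by role) on each of the 9 arrays (columns), as the difference from that gene's mean over the 9 arrays, with colours limited to ±1. The control 1 column is the lowest in 19 genes and the GCM LN18 1 column the highest in 15.

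In GCM LN18 against control, 25 of 30 genes had a mean difference above 0, against 48.5% of all genes, and the median difference of the 30 was 0.15 on the log2 scale, against -0.0037 over all genes. Higher signals at a limma adjusted p under 0.05 were found for 3 genes (10%), Mxi1, Slc16a3 and Hk2, against 2.59% of all genes. No gene was lower, against 2.64% of all genes. With the replicate block only Mxi1 was called (1 of 30), against 0.877% of all genes in either direction. Without the control of number 1 or 3, or without any 1 GCM LN18 array, Mxi1 was also the 1 gene left. Without the control of number 2, 5 genes were called, with Vegfa and Bnip3 added, and without replicate number 1 or 3 none was called. Without replicate number 2, 4 genes were called, Mxi1, Slc2a1, Slc16a3 and Vegfa, and Hk2 was not (limma adjusted p = 0.087). Hk2 also lost its call without the GCM U87 array of number 3 (limma adjusted p = 0.052) and in a fit of only the 2 groups compared (limma adjusted p = 0.057). At an unadjusted p under 0.05, 11 genes were higher (9.63% of all genes) and 2 were lower (11.0% of all genes). The groups did not overlap for 6 genes that were higher (11.1% of all genes), namely Mxi1, Slc16a3, Hk2, Gapdh, Ldha and Higd1a, and for 2 that were lower (12.8% of all genes), P4ha2 and Ndrg1. Within replicate numbers, 7 of 30 were higher in all 3 (14.7% of all genes) and 2 were lower in all 3 (16.7% of all genes).

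The size of the shift depended on the replicate number. Between GCM LN18 and control, the median difference of the 30 genes was 0.41 within replicate number 1, -0.02 within number 2 and 0.14 within number 3, and 24, 12 and 25 genes were above 0. Without the control of number 1 the median over all arrays was 0.06, and without replicate number 1 altogether it was 0.05. Without the control of number 2 it was 0.21 and without replicate number 2 it was 0.23. The direction of the median stayed above 0 in each of these, and its size changed with the control array or replicate number left out.

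In GCM U87 against control, no clear shift was seen. The median difference was 0.06 with 17 of 30 genes above 0, against 48.7% of all genes. No gene was called higher (0.807% of all genes) or lower (0.708% of all genes) by limma, and none with the block (0.0468% of all genes). At an unadjusted p under 0.05, 2 genes were higher, Mxi1 and Hk2 (7.99% of all genes), and 4 were lower, Hk1, Pfkp, P4ha2 and Ndrg1 (9.05% of all genes). The groups did not overlap for 1 gene that was higher, Hk2 (8.79% of all genes), and for 5 that were lower, Hk1, Pfkp, Aldoa, P4ha2 and Ndrg1 (10.3% of all genes). The same genes were higher (1, against 11.2% of all genes) or lower (5, against 13.3%) in all 3 replicate numbers. The median within replicate numbers was 0.31, -0.24 and 0.04, with 23, 3 and 16 genes above 0. The median changed sign to -0.03 without the control of number 1 and to -0.06 without replicate number 1. It was 0.01 without the GCM U87 array of number 1. It rose to 0.12 without the control of number 2, to 0.18 without replicate number 2, to 0.10 without the GCM U87 array of number 2 and to 0.09 without either the control of number 3 or replicate number 3.

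The 2 conditioned media differed by a small amount that ran the same way in nearly every gene. In GCM LN18 against GCM U87, 28 of 30 genes were above 0, against 49.8% of all genes, and the median difference was 0.15. Within replicate numbers it was 0.07, 0.26 and 0.13, with 26, 26 and 27 genes above 0. In all 3 replicate numbers, 21 of 30 genes (70%) were higher with GCM LN18, against 14.5% of all genes, and none was lower, against 14.5%. The genes rise and fall together from array to array and are not independent counts of this difference. No gene was called higher (0.00585% of all genes) or lower (0%) by limma, and none with the block (0%). Both fits take their spread from all groups, controls included. At an unadjusted p under 0.05, 5 genes were higher, Mxi1, Slc16a3, Hk1, Aldoa and Gapdh (6.16% of all genes), and none was lower (5.84%). The groups did not overlap for these 5 and for Hif1a and Pgk1, 7 genes in all (8.92% of all genes), and for none in the other direction (8.48%). Without the GCM U87 array of replicate number 2 the median was 0.06, and without replicate number 2 it was 0.09. The 3′ minus 5′ signal of the Gapdh control probe sets, a measure of RNA quality, was 0.10 to 0.17 in GCM U87 and 0.02 to 0.07 in GCM LN18, with 0.03 to 0.10 in controls, so that the treated groups did not overlap. For actin it was 0.30 to 0.34, 0.25 to 0.29 and 0.27 to 0.33. The paper reports that RNA integrity was measured and that samples of high integrity were used. The part of RNA quality in the difference between the media was not tested.

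**Figure D2:**
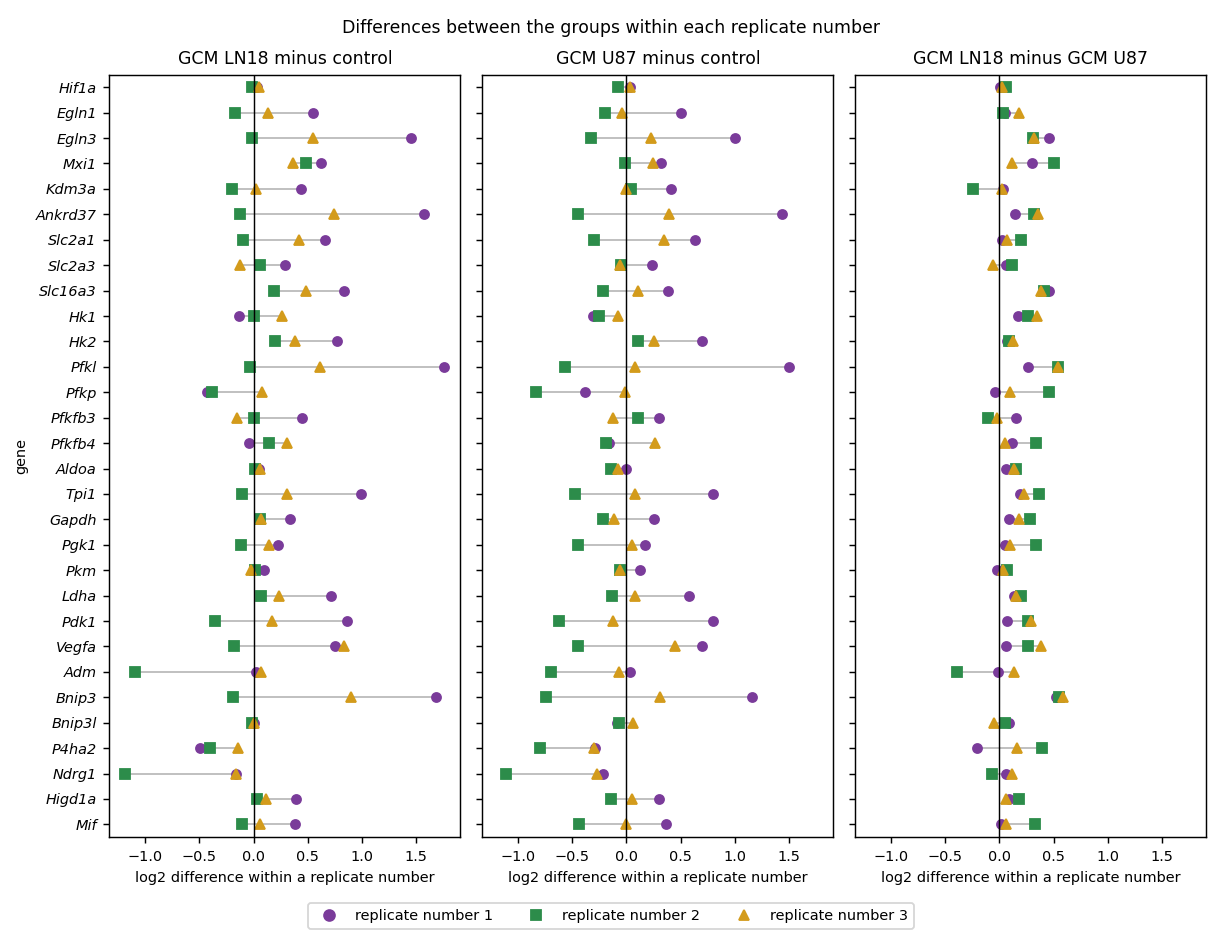
Log2 difference between groups within each replicate number (points) for the 30 measured genes (rows), with a grey line over the range of the 3. In GCM LN18 minus control (left) and GCM U87 minus control (middle), replicate number 1 lies mostly to the right and number 2 to the left, whereas in GCM LN18 minus GCM U87 (right) 21 of 30 genes have all 3 points above 0.

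Among the genes of oxygen sensing and HIF feedback, Mxi1 rose with GCM LN18 and the others did not pass the test. Mxi1 encodes a MAX-binding repressor that opposes MYC and is induced by HIF. Its log2 signal was 7.14, 7.30 and 7.25 in control 1 to 3, 7.77, 7.79 and 7.62 with GCM LN18, and 7.46, 7.29 and 7.50 with GCM U87. All 3 GCM LN18 arrays lay above all other arrays, while GCM U87 overlapped the controls. The difference between GCM LN18 and control was 0.49 ± 0.07 (SE, n = 3 per group), or 1.41-fold, with a limma adjusted p of 0.0064 and of 0.047 with the block (95% interval with the block 0.30 to 0.69). Within replicate numbers it was 0.62, 0.49 and 0.37. Mxi1 was 0.18 higher with GCM U87 than in control (limma adjusted p = 0.23) and 0.31 higher with GCM LN18 than with GCM U87 (limma adjusted p = 0.17, and 0.92 with the block). A dimmer probe set of Mxi1 differed by 0.09 between GCM LN18 and control.

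The 2 genes of this set with the widest spread were Egln3 and Ankrd37, both HIF targets, the first a prolyl hydroxylase that acts back on HIF and the second a small ankyrin-repeat protein. Egln3 had log2 signals of 4.33, 5.26 and 4.89 in control, 5.78, 5.25 and 5.44 with GCM LN18, and 5.33, 4.94 and 5.12 with GCM U87. Ankrd37 had 5.69, 6.88 and 6.32 in control, 7.26, 6.76 and 7.06 with GCM LN18, and 7.12, 6.44 and 6.71 with GCM U87. For both, control 1 was the lowest array and control 2 lay among the treated arrays. The difference of Egln3 between GCM LN18 and control was 0.66 ± 0.22 (limma adjusted p = 0.13, and 0.30 with the block), made up of 1.45, -0.02 and 0.55 within the replicate numbers. That of Ankrd37 was 0.73 ± 0.28 (limma adjusted p = 0.18, and 0.38 with the block), made up of 1.57, -0.12 and 0.74. With GCM U87 the differences were 0.30 and 0.46, with limma adjusted p of 0.53 and 0.44.

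The remaining genes of the set moved less. Hif1a, the oxygen-regulated subunit of HIF, lay between 9.77 and 9.85 on all 9 arrays and differed by 0.02 between GCM LN18 and control and by -0.01 between GCM U87 and control. Egln1, the main HIF prolyl hydroxylase, lay between 7.58 and 8.13, with a difference of 0.17 for GCM LN18 and 0.09 for GCM U87. Kdm3a, a histone demethylase induced by HIF, lay between 7.92 and 8.36, with differences of 0.09 and 0.15, and was one of 2 genes of the 30 with a mean lower in GCM LN18 than in GCM U87 (-0.06). None of these differences from control exceeded the SD of the 3 controls.

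Of the 3 transporters, Slc16a3 stood apart. It encodes MCT4, a monocarboxylate transporter suited to lactate export, and was a dim gene, below the median gene of the arrays (4.34). Its log2 signal was 3.70, 4.12 and 3.92 in control, 4.54, 4.31 and 4.40 with GCM LN18, and 4.09, 3.90 and 4.02 with GCM U87. The GCM LN18 arrays lay above all others, and GCM U87 lay within the range of the controls. The difference between GCM LN18 and control was 0.50 ± 0.10, or 1.42-fold (limma adjusted p = 0.025), and was not called with the block (adjusted p = 0.10, 95% interval 0.24 to 0.77). Within replicate numbers it was 0.84, 0.19 and 0.48. Against GCM U87 it was 0.41 ± 0.10 (limma adjusted p = 0.19, and 0.92 with the block), with 0.45, 0.41 and 0.38 within replicate numbers. The glucose transporters Slc2a1 (GLUT1) and Slc2a3 (GLUT3) did not pass the test, although Slc2a1 did for GCM LN18 once replicate number 2 was left out. Slc2a1 was 8.86, 9.42 and 9.04 in control, 9.52, 9.33 and 9.46 with GCM LN18 and 9.49, 9.13 and 9.38 with GCM U87, so that control 2 lay among the treated arrays. Its difference was 0.33 for GCM LN18 and 0.23 for GCM U87 (limma adjusted p = 0.23 and 0.44). Slc2a3 differed by 0.08 and 0.04.

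At the entry of glycolysis the 2 hexokinases gave different orders of the groups. Hk2, the inducible hexokinase that binds mitochondria, had log2 signals of 7.45, 7.84 and 7.73 in control, 8.22, 8.03 and 8.11 with GCM LN18, and 8.15, 7.95 and 7.98 with GCM U87. All 6 treated arrays lay above all 3 controls. The difference between GCM LN18 and control was 0.45 ± 0.10, or 1.36-fold (limma adjusted p = 0.034, and 0.13 with the block, 95% interval 0.19 to 0.71), with 0.77, 0.19 and 0.38 within replicate numbers. For GCM U87 it was 0.35 ± 0.10, or 1.28-fold (limma adjusted p = 0.12, and 0.40 with the block), with 0.70, 0.11 and 0.25. Hk2 was the one gene of the 30 that was higher than control in all 3 replicate numbers with both media. Over all genes, 14.7% were higher in all 3 with GCM LN18 and 11.2% with GCM U87, each against the same controls. The media differed in Hk2 by 0.09 with a 95% interval of -0.16 to 0.35 with the block.

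Hk1, the constitutive hexokinase, had log2 signals of 7.23, 7.17 and 7.02 in control, 7.10, 7.17 and 7.29 with GCM LN18, and 6.92, 6.91 and 6.94 with GCM U87. The 3 GCM U87 arrays lay below the other 6, and GCM LN18 overlapped control. The difference was -0.21 ± 0.06 for GCM U87 (limma adjusted p = 0.13, and 0.47 with the block) and 0.05 for GCM LN18. Between the media it was 0.26 ± 0.06 (limma adjusted p = 0.18, and 0.92 with the block).

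Phosphofructokinase, the committed step, is built from isoforms whose differences lay on both sides of 0. Pfkp had log2 signals of 8.22, 8.36 and 7.93 in control, 7.79, 7.98 and 8.01 with GCM LN18, and 7.84, 7.52 and 7.91 with GCM U87. The GCM U87 arrays lay below all controls, that of number 3 by only a small margin, while GCM LN18 overlapped them. The difference was -0.41 ± 0.13 for GCM U87 (limma adjusted p = 0.15, and 0.44 with the block) and -0.24 ± 0.13 for GCM LN18 (limma adjusted p = 0.32). Pfkl had 4.60, 5.89 and 5.46 in control, 6.36, 5.86 and 6.07 with GCM LN18 and 6.10, 5.32 and 5.54 with GCM U87, with control 1 far below the rest. Its difference for GCM LN18 was 0.78 ± 0.31 (limma adjusted p = 0.20), and 2 other probe sets of Pfkl gave 0.36 and 0.13, so its size depended on the probe set. Pfkfb3 and Pfkfb4, which make the allosteric activator of phosphofructokinase, differed by 0.10 and 0.14 for GCM LN18 and by 0.09 and -0.03 for GCM U87, and neither passed the test.

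The enzymes from aldolase to pyruvate kinase were bright on all arrays, and none passed the test. The probe sets used for Aldoa and Tpi1 belong to a class that can also bind related sequences, and their values are uncertain to that extent. Aldoa, the main aldolase, had log2 signals of 11.38, 11.44 and 11.40 in control, 11.44, 11.45 and 11.46 with GCM LN18, and 11.38, 11.30 and 11.33 with GCM U87. All 3 GCM LN18 arrays were above all 3 GCM U87 arrays. The difference was 0.04 for GCM LN18 and -0.08 for GCM U87, and the media differed by 0.12 ± 0.04 (limma adjusted p = 0.28, and 0.93 with the block). The 3 other probe sets of Aldoa, which belong to the same class, gave 0.12, 0.13 and 0.15 between the media. Against control with GCM LN18 they gave, in the same order, 0.05, 0.12 and 0.04. Gapdh, the dehydrogenase of the pathway and a common reference gene, lay between 11.35 and 11.60 in control, 11.63 and 11.69 with GCM LN18 and 11.38 and 11.60 with GCM U87. It differed by 0.16 for GCM LN18 (limma adjusted p = 0.27) and by 0.18 between the media (limma adjusted p = 0.38). Tpi1, triosephosphate isomerase, differed by 0.40 for GCM LN18 (limma adjusted p = 0.28), with 0.99, -0.11 and 0.31 within replicate numbers, and its second probe set gave 0.47. Pgk1 and Pkm, the enzymes that make ATP in the pathway, differed by 0.08 and 0.03.

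Ldha, which turns pyruvate into lactate, had log2 signals of 10.72, 11.17 and 11.05 in control, 11.44, 11.24 and 11.28 with GCM LN18, and 11.30, 11.04 and 11.13 with GCM U87. The GCM LN18 arrays lay above all controls, those of GCM U87 did not. The difference for GCM LN18 was 0.34 ± 0.11 (limma adjusted p = 0.13, and 0.32 with the block), with 0.72, 0.07 and 0.23 within replicate numbers, and for GCM U87 it was 0.18 ± 0.11 (limma adjusted p = 0.46). Pdk1, a kinase that shuts off pyruvate dehydrogenase, differed by 0.22 for GCM LN18 and 0.02 for GCM U87, with 0.86, -0.36 and 0.17 within replicate numbers for GCM LN18.

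The HIF targets outside glycolysis had differences on both sides of 0. Bnip3, a mitophagy receptor, had the largest mean difference of the 30 genes between GCM LN18 and control. Its log2 signal was 7.27, 8.53 and 7.82 in control, 8.95, 8.34 and 8.71 with GCM LN18, and 8.43, 7.78 and 8.12 with GCM U87. Control 2 lay above 1 of the GCM LN18 arrays and control 1 lay far below all others. The difference was 0.80 ± 0.30, or 1.74-fold (limma adjusted p = 0.17, and 0.36 with the block), with 1.69, -0.19 and 0.90 within replicate numbers. Without control 2 it was 1.13 and past the test (limma adjusted p = 0.042). Against GCM U87, Bnip3 was 0.56 ± 0.30 higher with GCM LN18 (limma adjusted p = 0.50, and 0.93 with the block), with 0.53, 0.55 and 0.59 within replicate numbers. That error comes from a spread shared by all groups, and the SD was 0.63 in control, 0.31 with GCM LN18 and 0.32 with GCM U87. Its paralog Bnip3l lay between 9.12 and 9.21 on all arrays.

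A pair of targets was lower with both media in all 3 replicate numbers. For each medium alone, 16.7% (GCM LN18) and 13.3% (GCM U87) of all genes were lower in all 3. The share for both media together was not counted, and both were set against the same 3 controls. P4ha2, a subunit of the enzyme that hydroxylates collagen prolines, had log2 signals of 5.002, 5.142 and 4.890 in control, 4.51, 4.74 and 4.75 with GCM LN18, and 4.71, 4.34 and 4.59 with GCM U87. All treated arrays lay below all controls. The difference was -0.34 ± 0.11 for GCM LN18 (limma adjusted p = 0.10, and 0.27 with the block) and -0.46 ± 0.11 for GCM U87 (limma adjusted p = 0.071, and 0.29 with the block). Ndrg1, a stress-responsive gene, had 4.82, 5.46 and 4.84 in control, 4.67, 4.28 and 4.68 with GCM LN18, and 4.61, 4.35 and 4.57 with GCM U87. Again all treated arrays lay below the controls, by a wide margin only within replicate number 2. The differences were -0.50 ± 0.18 and -0.53 ± 0.18 (limma adjusted p = 0.15 and 0.17, and 0.33 and 0.46 with the block), and within replicate numbers -0.16, -1.18 and -0.16 for GCM LN18.

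The other targets did not pass the test in any comparison with the probe set used here and all arrays. Vegfa, the main angiogenic factor, differed by 0.47 for GCM LN18 (limma adjusted p = 0.20) and 0.23 for GCM U87, with 0.76, -0.18 and 0.83 within replicate numbers for GCM LN18. It was past the test for GCM LN18 once the control of number 2, or all arrays of that number, was left out. A dimmer probe set of Vegfa, below the median gene, differed by 0.12 for GCM LN18 and -0.02 for GCM U87. Adm, the vasodilator peptide adrenomedullin, was dim (mean 3.59) and differed by -0.33 and -0.24, with control 2 at 4.19 above every other array. Higd1a, a mitochondrial protein induced by hypoxia, differed by 0.18 and 0.07. A dimmer probe set of Higd1a differed by 0.40 for GCM LN18, and Higd1a was called higher there when its probe sets were averaged or its most variable one was used. Mif, macrophage migration inhibitory factor, differed by 0.11 and -0.02.

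**Figure D3:**
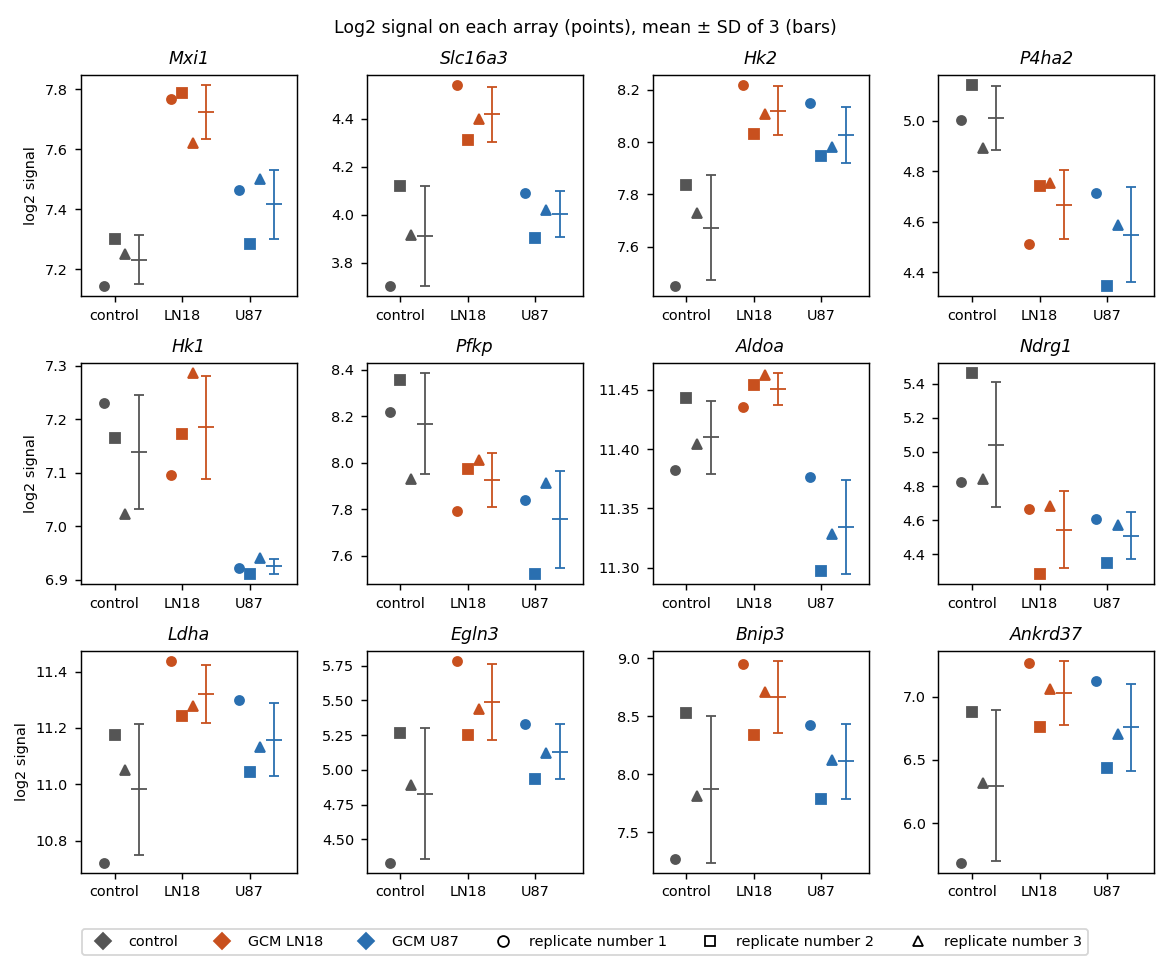
Log2 signal of the 12 genes with full values on each array (points, shape by replicate number) with mean ± SD of 3 arrays per group (bars), each panel with its own axis. Mxi1 and Slc16a3 with GCM LN18 lie above all other arrays, Hk2 is above control with both media, Hk1 with GCM U87 lies below all other arrays, and Egln3, Bnip3 and Ankrd37 are lowest in control 1.

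Other genes of the same pathways were counted from lists. Of 36 measured genes of glycolysis and pyruvate metabolism outside the group, 2 were higher and 2 lower with GCM LN18 by limma (2.59% and 2.64% of all genes), and none with the block (0.877%). The higher ones were Pfkm, the muscle isoform of phosphofructokinase (0.17, adjusted p = 0.033, and 0.24 with the block), and Pdk3, another kinase of pyruvate dehydrogenase (0.36, limma adjusted p = 0.017, and 0.091 with the block). The lower ones were the pyruvate dehydrogenase phosphatases Pdp1 (-0.42, limma adjusted p = 0.037, and 0.14 with the block) and Pdp2 (-0.53, limma adjusted p = 0.0086, and 0.051 with the block). The median over the 36 genes was 0.04 for GCM LN18 and -0.0014 for GCM U87, against -0.0037 and -0.0026 over all genes.

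Of 43 measured genes of the wider HIF pathway, 5 were higher and 2 lower with GCM LN18 (2.59% and 2.64% of all genes), and none with the block (0.877%). The higher ones included Errfi1, an inhibitor of epidermal growth factor receptor signalling (0.59, limma adjusted p = 0.013, and 0.064 with the block), Vhl, which targets HIF for destruction (0.30, limma adjusted p = 0.016, and 0.10 with the block), and Pdgfb, a growth factor (0.63, limma adjusted p = 0.032, and 0.11 with the block), beside Angptl4 and Gys1 (adjusted p with the block 0.14 and 0.15). The lower ones were Egln2, a HIF prolyl hydroxylase (-0.17, limma adjusted p = 0.038, and 0.25 with the block), and Gbe1, the glycogen branching enzyme (-0.72, limma adjusted p = 0.042, and 0.13 with the block), for which control 1 (6.10) lay above control 2 (5.57). Of 9 measured pentose phosphate genes, 1 was higher with GCM LN18 by limma, the endoplasmic reticulum enzyme H6pd (0.60, adjusted p = 0.0095, and 0.052 with the block). No gene of these 3 lists passed the test for GCM U87 or between the media, where 8 and 7, 10 and 6, and 3 and 2 genes had an unadjusted p under 0.05. Over all genes that share was 7.99% higher and 9.05% lower for GCM U87, and 6.16% higher and 5.84% lower between the media.

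**Figure D4:**
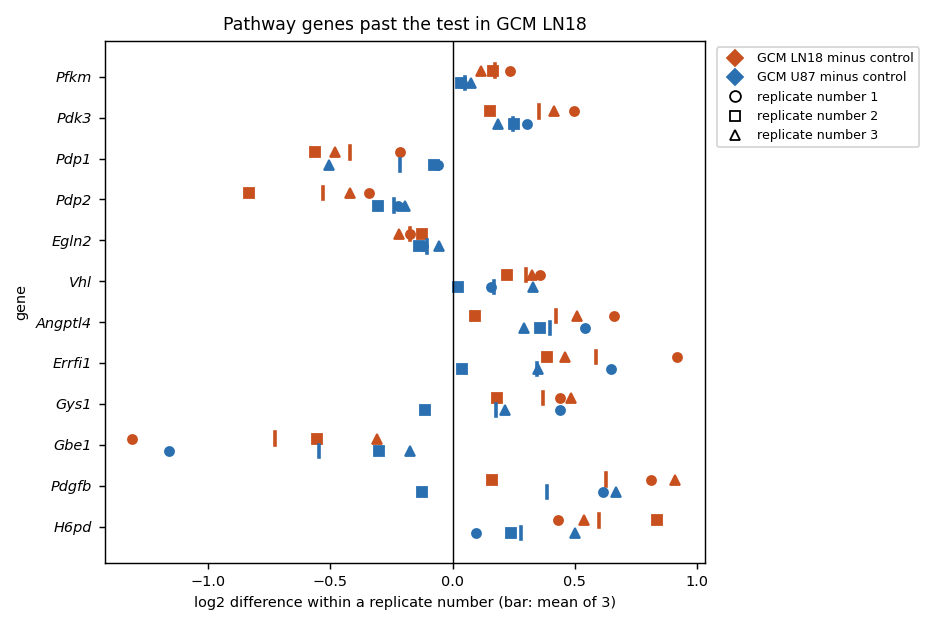
Log2 difference from control within each replicate number (points) for the 12 genes of the pathway lists that passed the test for GCM LN18 without the block, with the mean of 3 as a bar. All 12 lie on one side of 0 with GCM LN18, the comparison they were chosen by, so this follows in part from the choice. With GCM U87, Gys1 and Pdgfb have replicate number 2 on the other side.

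The cell type label was checked against marker genes. Tyrobp, Trem2, Csf1r, Cx3cr1 and C1qa were bright (mean log2 signal 9.04 to 11.9), whereas the homeostatic markers P2ry12 (3.65) and Tmem119 (4.28) lay below the median gene and Sall1 (4.75) close to it. Of 17 measured microglia and macrophage markers, 7 were higher with GCM LN18 (2.59% of all genes), namely Cx3cr1, Tmem119 and Olfml3, which kept their call with the block (0.877% of all genes), and Gpr34, Aif1, Fcrls and C1qa, which lost it (limma adjusted p 0.10 to 0.23). The mean of the list was 8.34 to 8.45 in control, 8.75 to 8.80 with GCM LN18 and 8.61 to 8.76 with GCM U87. With GCM U87, 3 were higher (0.807% of all genes), Cx3cr1 and Olfml3 also with the block and Fcrls without it (limma adjusted p with the block 0.084). The mean of this list was thus above all controls on all 6 treated arrays, but its genes did not all rise. Their median difference was 0.18 with GCM LN18 and 0.12 with GCM U87. Olfml3 (1.70 and 1.48) and Cx3cr1 (0.97 and 0.78) rose most. Tyrobp (0.01 and 0.02) and Ptprc (-0.04 and -0.0015) changed little, and P2ry13 (-0.11 and -0.22) and Sall1 (-0.12 and -0.24) were lower without passing the test. Means of astrocyte, oligodendrocyte lineage, neuron, and fibroblast and endothelial markers lay between 2.93 and 3.52 on all arrays, and none of these genes was called. Among them, Kdr (5.25), Sox10 (5.15) and Mag (4.67) lay above the median gene and the others below it. Among markers of border macrophages, Mrc1 was lower with GCM LN18 (-0.25, limma adjusted p = 0.038, and 0.18 with the block), Pf4 (9.17) and Ms4a7 (10.90) were bright and Cd163 and Lyve1 were at the low end. In a bulk sample, fewer cells of a kind and less RNA per cell cannot be told apart, and the part of cell composition in the differences above was not tested.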

How the data were processed

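The 9 samples were 3 groups of 3 microglia cultures, taken from the deposited labels, with 1 MG-430 PM strip array from Affymetrix for each. The authors deposited normalized log2 signals per probe set, and their processing notes name limma. The methods name RMA for public arrays that were compared, and whether it was also used for these arrays is not stated directly. Array medians lay between 3.39 and 3.41 on the log2 scale. The precision is limited by the number of arrays.

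Of 45141 probe sets, 104 controls, 551 with several symbols and 15588 unnamed here were left out of the fit. Each gene was represented by its brightest probe set with 1 symbol, which gave 17097 genes. Of the 34 named genes, 18 had more than 1 probe set. Levels of different probe sets were described only in broad terms, such as bright, dim or below the median gene, and were not tested. The platform annotation supplied names, matched to RefSeq for 28689 probe sets. Group means over the 9 arrays were fitted together in R 4.3.3 by limma 3.58.1, with moderation by eBayes and Benjamini-Hochberg adjustment over all genes, called under 0.05. Errors are standard errors of that fit unless named. They rest on a spread shared by all groups, controls included, also in the comparison of the media.

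Replicate numbers gave the same mean in each number for every probe set, so a correlation check of pairing is void and the replicate block is given as an alternative. P-values without the block are too small for this reason, and where nothing says that a number marks 1 culture, they measure the spread between these samples only. Full values were given for genes past the test, filled to 12 by the lowest unadjusted p, and other genes were named with counts or ranges, some after their values were seen. From each pathway list, genes past the test were named, at most 3 in each direction with values. The genes and lists were chosen with earlier results of these data known. Other settings tried were the replicate block, a trended and robust eBayes, leaving out genes below the median gene, the mean or the most variable probe set of a gene, quantile normalization, median centring, array weights, only the groups compared, and each array or replicate number left out. Fits were tested on simulated data.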

Additional observations from a re-analysis of the deposited data

Results flagged for a closer look

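One gene, Aldoa, was flagged for its difference between the 2 media. Aldoa was higher than control within all 3 replicate numbers with GCM LN18 (0.05, 0.01 and 0.06 on the log2 scale) and lower within all 3 with GCM U87 (-0.01, -0.15 and -0.08). Over all genes, 14.7% were higher in all 3 with GCM LN18 and 13.3% lower in all 3 with GCM U87. Other genes of the group, among them Hk1, Gapdh and Pgk1, also had means on opposite sides of control with the 2 media. The difference between the media was 0.12 (unadjusted p = 0.011, limma adjusted p = 0.28, and 0.93 with the replicate block), so it did not pass the test. Neither difference from control passed the test (limma adjusted p = 0.57 and 0.33). Of the 3 other Aldoa probe sets, 2 lay below control within replicate number 2 with GCM LN18 (-0.03 and -0.04), so the pattern depends on the probe set.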

How the results depend on the processing

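The number of genes called in GCM LN18 against control was 3 and fell to 1, Mxi1, with the replicate block. Leaving out arrays or replicate numbers gave 0 to 5. It was 1 without any single GCM LN18 array or without the control of number 1 or 3, and 5 without the control of number 2, where Vegfa and Bnip3 were added. It was 0 without replicate number 1 or 3, and in the block fit without any one number, which was added after seeing the data. It was 4 without replicate number 2, with Slc2a1 and Vegfa added and Hk2 lost, 4 with the mean or the most variable probe set, with Higd1a added, 2 in a fit of only the groups compared, without Hk2, and 2 without dim genes, which leave Slc16a3 untested. For GCM U87 and between the media the count was 0 in every alternative run. Over all genes, the block took the calls from 894 to 150 for GCM LN18 and from 259 to 8 for GCM U87, and without 1 array or number they were 119 to 856 and 9 to 229. The median differences of the 30 genes kept their direction except for GCM U87 without the control of number 1 or without replicate number 1. That of GCM U87 was 0.06, and 0.09 with the most variable probe set of each gene. Differences that crossed 0 with an array or number left out were those of Hk1 for GCM LN18 (-0.064 to 0.14), of Slc16a3 (-0.058 to 0.24), Bnip3 (-0.22 to 0.73), Ldha (-0.024 to 0.33), Egln3 (-0.050 to 0.61) and Ankrd37 (-0.027 to 0.91) for GCM U87, and of Ndrg1 (-0.045 to 0.17, and -0.0051 without replicate number 3) and P4ha2 (-0.019 to 0.28) between the media. None of these was called. The causes were not tested. Signal over background limits Slc16a3 and Adm, both below the median gene.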
